A study of Mus musculus with 6 samples.

Results

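The 10 genes described here bear on whether a vessel wall mineralizes and were followed in mouse lung endothelial cells labelled wild type or knockout for Zmpste24, the protease that trims prelamin A to mature lamin A. They were chosen by symbol, as genes of pyrophosphate metabolism and regulators of vascular calcification, and all 10 were found among the 53735 genes of the deposited table. They are Ank, Enpp1, Alpl, Nt5e, Entpd1, Spp1, Mgp, Tnfrsf11b, Runx2 and Bmp2. RNA was sequenced in 6 libraries, 2 of wild type and 4 of knockout cells by their labels. No strain, age, sex or deleted exon is given, and no label ties a library to an animal or to 1 of the 2 cohorts of mice named. All 6 libraries came from untreated primary cultures without passage, grown to confluence after bead isolation with CD31 and ICAM2. The p-values below therefore rest on differences among single libraries, some of which may be technical.

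Inorganic pyrophosphate outside the cell blocks the growth of calcium phosphate crystals. The membrane protein Ank releases ATP and pyrophosphate, the enzyme Enpp1 splits ATP into AMP and pyrophosphate, and Alpl, tissue-nonspecific alkaline phosphatase, breaks pyrophosphate down. Entpd1 (CD39) competes for the same ATP by removing its phosphates one by one, and Nt5e (CD73) turns the resulting AMP into adenosine. Spp1 (osteopontin), Mgp (matrix Gla protein) and Tnfrsf11b (osteoprotegerin) are secreted proteins that restrain calcification, while Runx2 and Bmp2 drive the bone programme. Loss of extracellular pyrophosphate and early calcification of arteries are known from mouse models of progeria.

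The libraries held 32699024 to 45613685 reads. The values below are normalized counts, that is reads divided by a size factor of the library. Wild type 1 and knockout 1, called the first library set here, stood apart from wild type 2 and knockout 2, 3 and 4, the second set. This split was found in the data and is not in the labels. Summed macrophage and leukocyte markers stood at 1767 and 1501 counts in the first set and at 31098 to 50871 in the second, and summed smooth muscle markers at 235038 and 218278 against 59408 to 108618. Endothelial markers were present in every library, with summed counts of 175868 and 104780 in the first set and 37128 to 61351 in the second. Fibroblast markers were also high in every library, at 401975 to 472214 in sum. Summed mesothelial markers were at 36319 in wild type 1, at 81819 in knockout 1 and at 9786 to 19151 in the second set. Zmpste24 itself was counted 5503 and 4148 times in the wild type libraries 1 and 2 and 5079, 3764, 3599 and 3720 times in knockout 1 to 4 (log2 −0.26 ± 0.20, SE; limma adjusted p = 1.00). As the deleted part is not named, this count does not check the labels, and knockout below means a library with that label.

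None of the 10 genes passed the test between genotypes, and in all 10 the values of the knockout libraries overlapped those of the wild type libraries. Limma on log2(normalized count + 1) with genotype alone called 0 of 10, against 1 of 15229 tested genes (0.00657%), and 0 of 10 had an unadjusted p under 0.05, against 0.939% of all genes. EdgeR and DESeq2 with genotype alone also called 0 of the 10, against 1 (0.00657%) and 7 (0.046%) of all genes. At such shares 0 of 10 does not set these genes apart from the rest. Groups that do not overlap were found in 0 of 10 members, against 4.68% of all tested genes. Each library set holds both genotypes, so a gene whose sets do not overlap cannot have genotype groups that are apart. This fixed the outcome in advance for 7 of the 10, and for those the overlap says nothing about genotype. The median log2 difference of the 10 was 0.11, beside 0.00074 over all genes. Once the library set entered as a second term, DESeq2 called 1 member, Ank, which was lower in the knockout libraries, where it called 0.328% of all genes (0.256% as lower). Limma and edgeR with that term called 0 of 10, against 0.00657% and 0.0131% of all genes, and 1 member, again Ank, reached an unadjusted p under 0.05 in both (3.51% of all genes in limma).

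**Figure D1:**
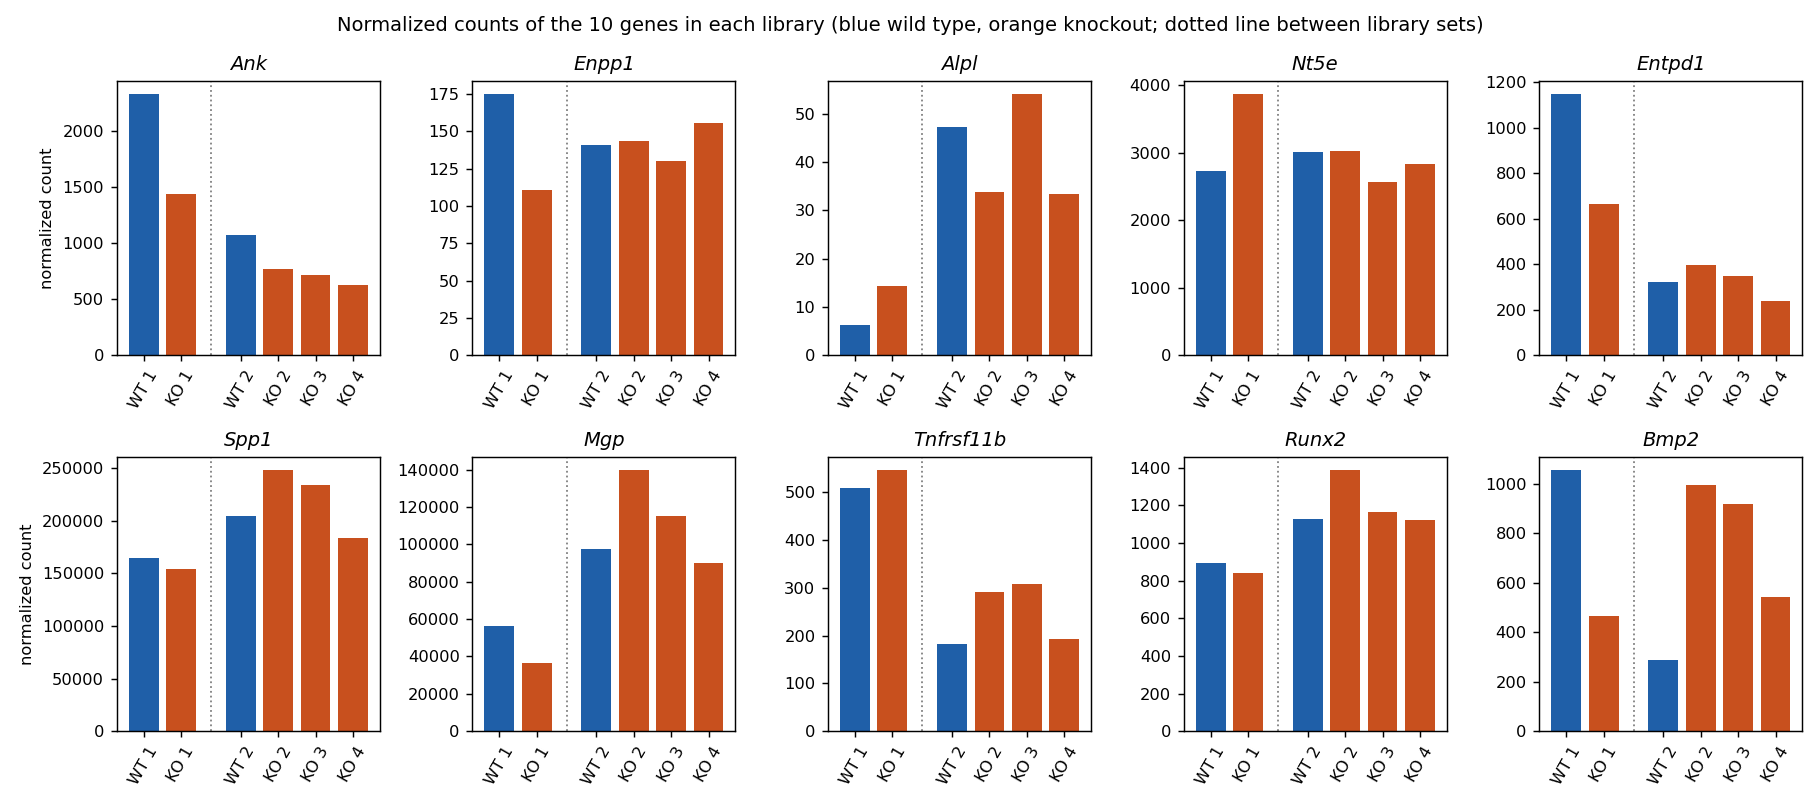
Normalized counts (vertical axes, starting at 0) of each gene in the 6 libraries, wild type in blue and knockout in orange, with the first library set left of the dotted line. Ank is lower in each knockout library than in the wild type of its set, while Bmp2 is lower in knockout 1 (467 against 1057) and higher in knockout 2, 3 and 4 (543 to 995 against 287).

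The levels of the 10 genes spanned 4 orders of magnitude per length. On the scale of normalized counts per kb of exon, Spp1 averaged 120293 and Mgp 75114 over the 6 libraries. Spp1 lay above Mgp within each library, by 1.28 to 3.07 times, although the ranges of these genes over the libraries overlapped. The next 6 genes formed a middle tier whose neighbours overlapped in range, with means of 349 for Nt5e, 322 for Ank, 200 for Bmp2, 123 for Runx2, 120 for Tnfrsf11b and 93.1 for Entpd1. Enpp1 followed with 10.8 to 17 counts per kb, below the lowest library of Entpd1 (42.5). Alpl was lowest, at 1.56 to 13.4 counts per kb, a range that overlaps that of Enpp1. Per length, the exporter gene Ank was thus above the gene of the pyrophosphate-making enzyme, Enpp1, and that of the degrading enzyme, Alpl, in each of the 6 libraries.

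**Figure D2:**
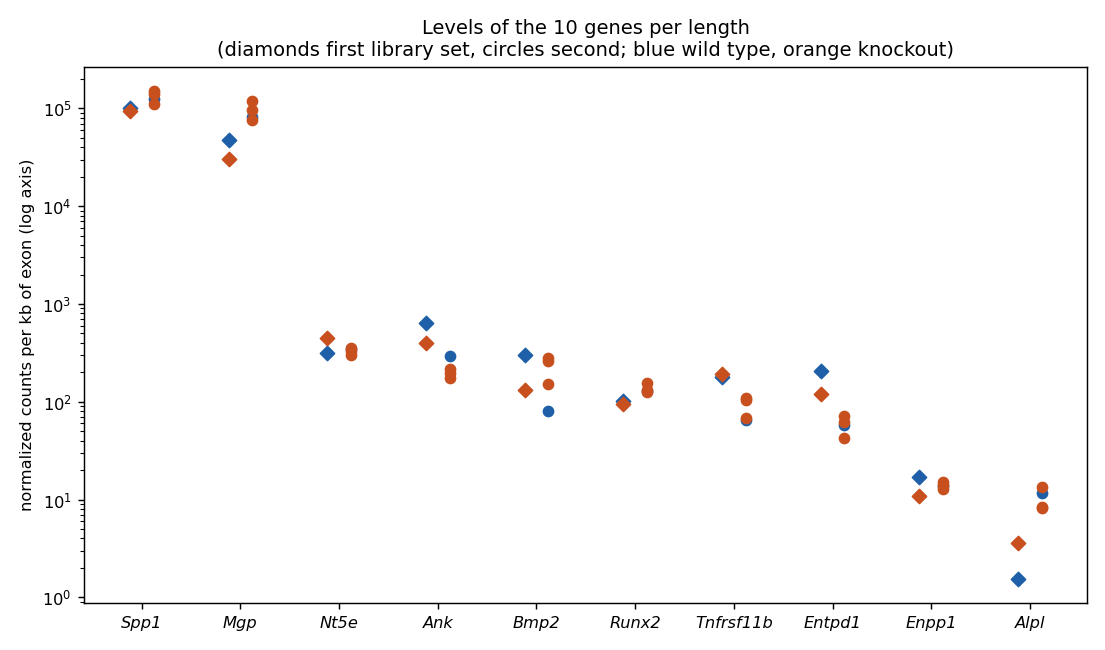
Normalized counts per kb of exon (log axis) for the 10 genes in order of their mean, with diamonds for the first library set, circles for the second, blue for wild type and orange for knockout. Spp1 and Mgp lie far above the middle tier in each library, and Enpp1 and Alpl below it.

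Ank (ENSMUSG00000022265.7, GRCm38 chromosome 15, 27466677 to 27594909, plus strand) had 2329 counts in wild type 1 and 1073 in wild type 2. It had 1442, 772, 716 and 632 in knockout 1 to 4. Knockout 1 therefore lies above wild type 2, and the groups overlap. Within the library sets the order was the same throughout: knockout 1 held 61.9% of the Ank level of wild type 1, and knockout 2, 3 and 4 held 72.0%, 66.7% and 58.9% of that of wild type 2. A gene lower in all 4 knockout libraries than in the wild type of its set is not rare here, with 10.8% of tested genes, and 3 of the 4 differences share wild type 2. Ank averaged 1701 ± 889 counts over the wild type libraries (SD, n = 2) and 890 ± 372 over the knockout libraries (SD, n = 4), a log2 difference with genotype alone of −0.91 ± 0.44 (SE; 95% interval −1.99 to 0.17; limma adjusted p = 1.00). That difference depended on the wild type libraries: it was −0.35 without wild type 1 and −1.47 without wild type 2.

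Adjusted for library set, the limma difference of Ank was −0.64 ± 0.11 (log2, SE; 95% interval −0.91 to −0.37). DESeq2 with that adjustment called it (adjusted p = 0.00172), and limma (adjusted p = 0.999) and edgeR (adjusted p = 0.909) did not. Leaving out 1 library at a time kept the DESeq2 estimate between −0.69 and −0.60. The call was lost without knockout 3 (DESeq2 adjusted p = 0.326) and held without knockout 2 (0.00683) or knockout 4 (0.00560). Without wild type 1 or knockout 1 the estimate rests on the second set alone (−0.61 and −0.60). Without wild type 2 it rests on knockout 1 against wild type 1 (−0.69). The call did not hold in these fits, which leave 1 wild type library to compare and are not independent checks. Summed markers of lymphatic endothelium were also lower within each set. They stood at 76205 and 54820 counts in wild type 1 and 2 and at 54665, 29146, 25233 and 23983 in knockout 1 to 4. Of 6 tested genes of the list, 6 lay below 0 in limma adjusted for library set, beside 7721 of all 15229 tested genes. DESeq2 with that adjustment called 2 of the 6, against 0.328% of all genes. The part of lymphatic markers in the difference of Ank was not tested. The summed endothelial markers were lower in knockout 1 (104780 against 175868), knockout 3 (52522 against 55125) and knockout 4 (37128). They were higher in knockout 2 (61351). Of 10 tested endothelial markers, 10 lay below 0 in limma adjusted for library set, beside 7721 of all 15229 tested genes. DESeq2 with that adjustment called 1 of the 10. The part of endothelial markers in the difference of Ank was not tested either. In bulk RNA, fewer cells of a type and less RNA per cell cannot be told apart.

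The RefSeq promoter table, on GRCm38.p6, held entries for 7 of the 10 genes. The Ank promoter is shown because Ank was the one member called, as the 250 bases before the start at chr15:27466427-27466676, plus strand, with GC boxes in capitals. It is 81.2% G and C. The letters GGGCGG, searched on both strands, occur there 2 times, overlapping each other on the minus strand, and in 32.7% of 32851 promoter windows of this length.
Ank: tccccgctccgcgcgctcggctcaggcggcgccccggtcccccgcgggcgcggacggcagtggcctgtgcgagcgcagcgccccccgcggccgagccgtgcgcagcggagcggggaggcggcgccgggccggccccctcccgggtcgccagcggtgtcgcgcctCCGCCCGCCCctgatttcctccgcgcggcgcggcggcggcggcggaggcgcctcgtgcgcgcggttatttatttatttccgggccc

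Enpp1 (ENSMUSG00000037370.13, chromosome 10, 24637914 to 24712159, minus strand), the enzyme that makes pyrophosphate from ATP, was low and steady. It had 175 counts in wild type 1 and 141 in wild type 2, against 111, 143, 130 and 155 in knockout 1 to 4. Knockout 1 was the lowest library and wild type 1 the highest, while the 4 libraries of the second set lay close together. Knockout minus wild type was a log2 of −0.23 ± 0.23 with genotype alone and −0.25 ± 0.21 after adjustment for library set (SE; 95% interval of the latter −0.78 to 0.28; limma adjusted p = 0.999). Differences of either sign within that interval remain compatible with these values.

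Alpl (ENSMUSG00000028766.10, chromosome 4, 137741733 to 137796384, minus strand), which removes pyrophosphate, was barely detected in the first set. It had 6.28 counts in wild type 1 and 47.2 in wild type 2, against 14.4, 33.8, 54.0 and 33.3 in knockout 1 to 4. These rest on 6 to 63 reads a library, and the counting intervals of wild type 1 (2.31 to 13.7 counts, exact Poisson, 95%) and knockout 1 (7.86 to 24.1) overlap. The wild type libraries differed from each other 7.52-fold, more than any knockout library differed from the wild type of its set. On the log2 scale the difference was 0.76 ± 0.88 with genotype alone and 0.28 ± 0.42 after adjustment for library set (SE, limma adjusted p = 1.00 and 0.999). Summed lung epithelial markers were at 28.3 and 31.8 counts in the first set and at 214 to 510 in the second, where Alpl was also higher. Their part in the level of Alpl was not tested. Alpl lies on the same chromosome as Zmpste24.

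Entpd1 (ENSMUSG00000048120.16, chromosome 19, 40612366 to 40741602, plus strand), the first enzyme of the route from ATP to adenosine, had 1147 counts in wild type 1 and 321 in wild type 2. Its counts in knockout 1 to 4 were 666, 396, 350 and 237. The first set was higher than the second in both genotypes, and within the second set knockout 2 and 3 lay above wild type 2 and knockout 4 below it. The log2 difference was −0.66 ± 0.61 with genotype alone and −0.32 ± 0.28 after adjustment for library set (SE, limma adjusted p = 1.00 and 0.999). Of 12028 other genes with a mean of at least 50 counts, the one with the profile nearest to Entpd1 was Cdh5, the endothelial cadherin gene. The root-mean-square difference of their centred log2 profiles over the 6 libraries was 0.06, where Entpd1 itself varied by 0.75. Cdh5 had 62133 counts in wild type 1 and 18632 in wild type 2, against 33414, 22282, 18996 and 13135 in knockout 1 to 4. Next came Gimap1, at 0.10. The summed endothelial markers, Cdh5 among them, followed the library set in the same direction, and their part in the level of Entpd1 was not tested.

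For Ank the nearest profiles by the same measure were those of Tal1, a transcription factor gene of blood and endothelial cells (0.09), and Sgsm1 (0.11), where Ank varied by 0.65. Tal1 had 788 counts in wild type 1 and 392 in wild type 2, against 548, 262, 235 and 200 in knockout 1 to 4, so it was lower in each knockout library than in the wild type of its set, as Ank was. For Enpp1 the nearest were Bambi, a decoy receptor gene of TGF-beta and BMP signalling (0.07), and Rcbtb2 (0.09), where Enpp1 varied by 0.20. The compared members whose library sets do not overlap, Ank and Entpd1 among them, share the difference between library sets with their nearest genes. Those genes were picked as nearest over the same 6 libraries, so the sharing follows from the choice. Alpl, with a mean of 31.5 counts, was not compared. Enpp1 overlapped between the sets, with a log2 difference, second set minus first, of 0.03.

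**Figure D3:**
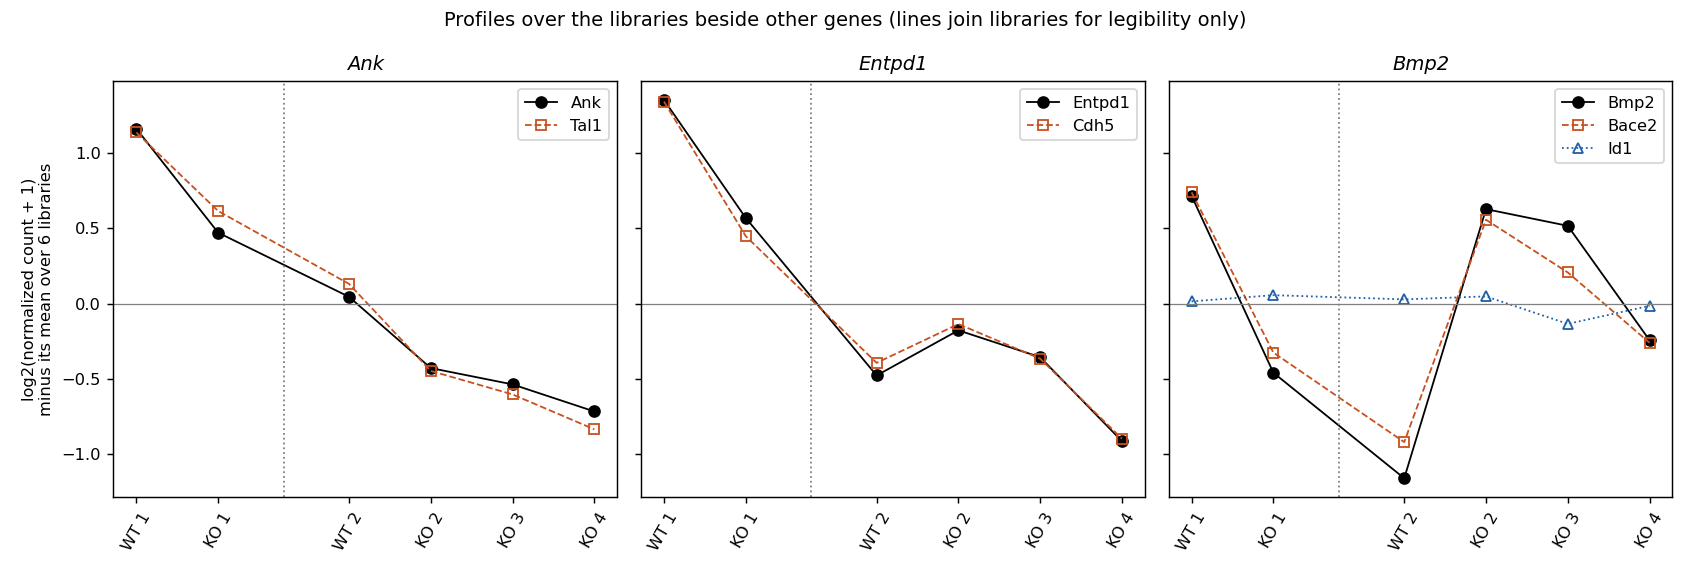
Log2(normalized count + 1) of Ank, Entpd1 and Bmp2 in each library, centred on the mean of the gene over the 6 libraries (vertical axis), beside the gene with the nearest profile and, for Bmp2, Id1. Entpd1 and Cdh5 nearly coincide (root-mean-square difference 0.06), while Id1, picked after its values were seen, stays near 0 as Bmp2 moves.

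Nt5e (ENSMUSG00000032420.8, chromosome 9, 88327197 to 88372092, plus strand), the last enzyme of the route to adenosine, was the steadiest of the 10 genes. It had 2728 counts in wild type 1 and 3009 in wild type 2, against 3869, 3025, 2564 and 2828 in knockout 1 to 4, a 1.51-fold range. Knockout 1 was the highest library, and the other 5 lay together. Summed mesothelial markers were also highest in knockout 1, and their part in the level of Nt5e was not tested. Knockout minus wild type was a log2 of 0.08 ± 0.18 with genotype alone (SE; 95% interval −0.36 to 0.53; limma adjusted p = 1.00). Its profile was nearest to that of Cish, a cytokine signalling inhibitor gene (0.04, where Nt5e varied by 0.19), followed by Ccdc84 (0.07). The ratio of Nt5e to Entpd1 per kb ran from 1.54 in wild type 1 and 3.77 in knockout 1 to between 4.75 and 7.73 in the second set.

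The secreted inhibitors Spp1 and Mgp were among the most abundant RNAs of these cultures. Spp1 (ENSMUSG00000029304.14, chromosome 5, 104435118 to 104441050, plus strand) ranked 15th and 6th by count in wild type 1 and 2, and 12th, 5th, 4th and 6th in knockout 1 to 4. It had 164782 counts in wild type 1 and 204725 in wild type 2. In knockout 1 to 4 it had 154368, 248345, 233721 and 183518. Both libraries of the first set lay below the second set, where the knockout libraries lay on both sides of wild type 2. On the log2 scale the difference was 0.13 ± 0.33 with genotype alone and 0.02 ± 0.19 after adjustment for library set (SE; 95% interval of the latter −0.44 to 0.49; limma adjusted p = 1.00 and 0.999). The annotation holds an unclassified transcript, Gm42793, that shares 309 exon bases with Spp1, so some reads could belong to it. Macrophages also make Spp1, and their summed markers were likewise lower in the first set (1767 and 1501 counts) than in the second (31098 to 50871). Their part in the level of Spp1 was not tested. The profiles nearest to Spp1 were those of the transcription factor gene Myc (0.0215) and of Fam193b (0.0244), where Spp1 varied by 0.25.

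Spp1 is a known target of RUNX factors, and its promoter is printed as that of the most abundant member, with the motifs found in it. The window is the 250 bases before the first RefSeq start, chr5:104434861-104435110 on the plus strand. It holds the letters of the RUNX core (ACCACA) and of the TATA box (TATAAA) 1 time each, in capitals. Searched on both strands, these letters occur in 14% and 12.4% of all promoter windows. TATAAA lies near the end of the window farthest from the start, so it is not shown to act as a TATA box. The RUNX core was also found 1 time each upstream of Enpp1 and Runx2, and not in the windows of Ank, Alpl, Entpd1 and Nt5e.
Spp1: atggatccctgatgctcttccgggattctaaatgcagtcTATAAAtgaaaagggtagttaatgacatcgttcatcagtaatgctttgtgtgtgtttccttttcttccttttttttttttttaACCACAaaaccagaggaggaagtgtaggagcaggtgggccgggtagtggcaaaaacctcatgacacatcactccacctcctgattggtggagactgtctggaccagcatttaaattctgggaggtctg

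Mgp (ENSMUSG00000030218.2, chromosome 6, 136872435 to 136875823, minus strand), the vitamin K dependent inhibitor of vessel calcification, had 56121 counts in wild type 1 and 97733 in wild type 2. It had 36263, 139929, 115092 and 89823 in knockout 1 to 4. Knockout 1 lay below its wild type, knockout 2 and 3 above theirs and knockout 4 just below. Its share of reads ran from 0.0868% in knockout 1 to 0.346% in knockout 2. The log2 difference was 0.20 ± 0.59 with genotype alone and turned to −0.13 ± 0.27 after adjustment for library set (SE; 95% interval of the latter −0.79 to 0.54; limma adjusted p = 1.00 and 0.999). Its profile was nearest to those of Fam26e and Fendrr, a long non-coding RNA gene of lung mesenchyme, both at 0.08, where Mgp varied by 0.66.

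Tnfrsf11b (ENSMUSG00000063727.3, chromosome 15, 54250619 to 54278484, minus strand), the decoy receptor for the osteoclast factor Tnfsf11, was higher in each knockout library than in the wild type of its set. It had 508 counts in wild type 1 and 182 in wild type 2, against 546, 292, 308 and 192 in knockout 1 to 4. The log2 differences within sets were 0.11, 0.68, 0.75 and 0.07, so knockout 1 and 4 barely differed from their wild type, and 10.1% of all tested genes were higher in all 4. The difference was 0.03 ± 0.55 with genotype alone and 0.34 ± 0.24 after adjustment for library set (log2, SE; 95% interval of the latter −0.27 to 0.96; limma adjusted p = 1.00 and 0.999). The nearest profiles were those of Ereg, the epiregulin gene (0.139), and Sdc3, a syndecan gene (0.143), where Tnfrsf11b varied by 0.61.

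Runx2 (ENSMUSG00000039153.16, chromosome 17, 44495987 to 44814797, minus strand), the master transcription factor gene of bone, was expressed in all libraries at a moderate level. It had 893 counts in wild type 1 and 1128 in wild type 2, against 841, 1390, 1165 and 1123 in knockout 1 to 4. Within each set the knockout values lay close to the wild type, apart from knockout 2. Knockout minus wild type was a log2 of 0.15 ± 0.23 with genotype alone and 0.03 ± 0.12 after adjustment for library set (SE; 95% interval of the latter −0.27 to 0.34; limma adjusted p = 0.999). Runx2 shares 519 exon bases with its antisense gene Runx2os1, which had a mean of 35 counts. The sources used here do not give whether reads were counted by strand. The nearest profiles were those of Wdr4 (0.0231) and Osbpl11 (0.0257), where Runx2 varied by 0.24.

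The markers of bone and cartilage cells were mostly near 0 in the same libraries. Sp7, the osteoblast factor gene downstream of Runx2, had 0 to 5.76 counts, Bglap (osteocalcin) 0 to 2.02 and Ibsp (bone sialoprotein) 0 to 1.03. Of 12 markers of osteoblasts, osteoclasts and chondrocytes, 3 reached a mean of 10 counts: Acan, Acp5 and Ctsk.

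Bmp2 (ENSMUSG00000027358.6, chromosome 2, 133552159 to 133562885, plus strand), a bone morphogenetic protein ligand gene, differed in opposite directions in the library sets. It had 1057 counts in wild type 1 and 287 in wild type 2. It had 467, 995, 921 and 543 in knockout 1 to 4. Knockout 1 was thus lower than its wild type 2.26-fold, and knockout 2, 3 and 4 were higher than theirs 3.47-, 3.21- and 1.89-fold. The wild type libraries were the highest and the lowest of all 6. The log2 difference over all libraries was 0.33 ± 0.59 with genotype alone and 0.41 ± 0.62 after adjustment for library set (SE; 95% interval of the latter −1.15 to 1.96; limma adjusted p = 1.00 and 0.999). In the second set alone it was 1.46 (limma adjusted p = 1.00; unadjusted p = 0.0186), where 1.93% of genes had an unadjusted p under 0.05. That value sets 3 knockout libraries against 1 wild type library, which is assumed to vary as they do.

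The difference between the sets was tested as an interaction of genotype with library set, which was chosen after the values were seen. For Bmp2 it was 2.64 ± 0.63 (log2, SE; 95% interval 0.94 to 4.34), which did not pass over all genes (limma adjusted p = 0.999; unadjusted p = 0.0119). Limma called 0 genes for this term (0.0%), with 3.94% at an unadjusted p under 0.05. Among the members, Nt5e also reached that level (−0.61 ± 0.20, unadjusted p = 0.0355, limma adjusted p = 0.999). In the first set the term rests on 1 library of each genotype.

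Id1, a direct target of BMP signalling that was named after its values were seen, stayed between 2437 and 2781 counts in all 6 libraries. Bmp2 ranged 3.69-fold. The 25 tested genes of BMP signalling and its antagonists had log2 differences of −1.67 to 0.87 with genotype alone. Id1 does not stand for them, and whether BMP targets followed Bmp2 was not tested. The nearest profiles to that of Bmp2 were those of Bace2, a secretase gene (0.17), and Hey2, a Notch target gene (0.26), where Bmp2 varied by 0.68.

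**Figure D4:**
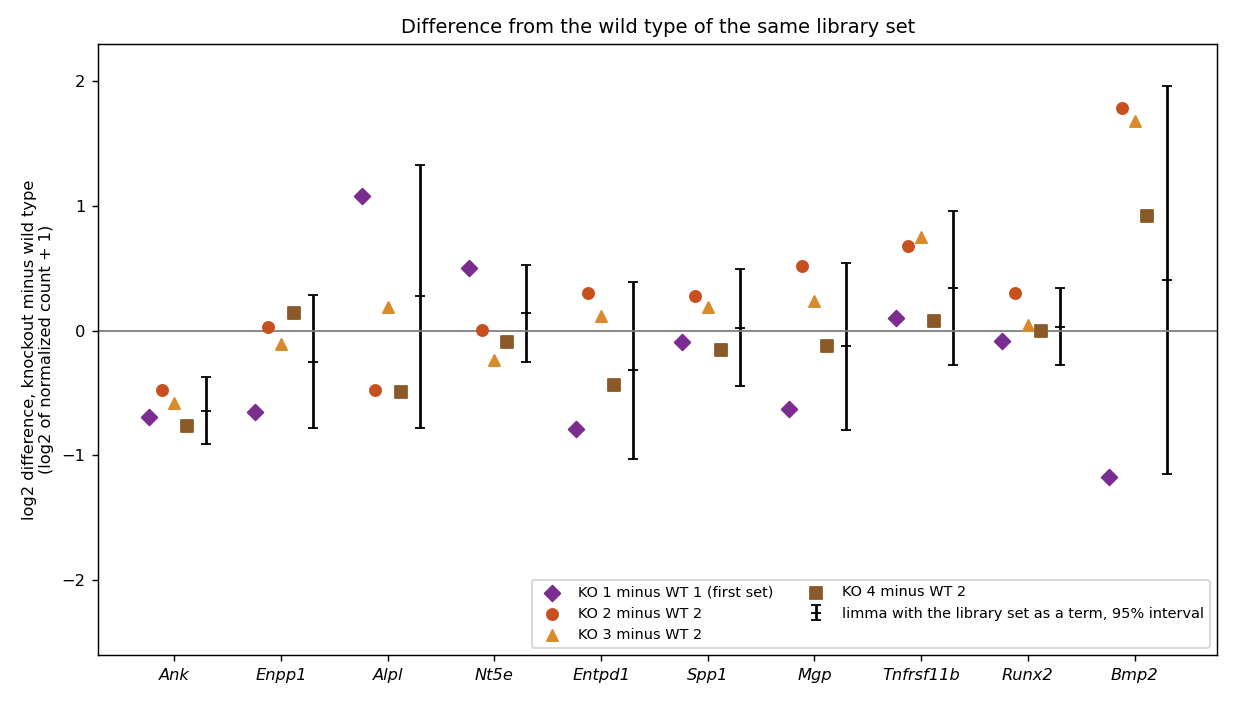
Log2 difference of each knockout library from the wild type of its library set (points, vertical axis) for the 10 genes, with the estimate of limma after adjustment for library set and its 95% interval in black. The interval leaves out 0 for Ank and includes it for the other 9 genes, and the points of Bmp2 lie on both sides of 0.

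Of the 10 genes, 7 did not overlap between the library sets, beside 63.4% of all tested genes (30.7% higher and 32.7% lower in the first set). Ank, Entpd1 and Tnfrsf11b were higher in the first set, with log2 differences, second set minus first, of −1.23, −1.44 and −1.15. Alpl, Spp1, Mgp and Runx2 were lower there, by the same measure 1.99, 0.44, 1.27 and 0.47. Enpp1, Nt5e and Bmp2 overlapped. The median size of the set difference was 0.81 over the 10 genes and 0.41 over all tested genes. The wild type libraries alone differed more than 2-fold in 5 of the 10 genes, Ank, Alpl, Entpd1, Tnfrsf11b and Bmp2.

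Of 109 other genes in 7 lists around these pathways, 89 were tested and 0 passed in limma with genotype alone, with 2 at an unadjusted p under 0.05, beside 0.939% of all tested genes. Adjusted for library set, limma and DESeq2 called 0 of them and 8 reached that unadjusted level in limma, beside 3.51% of all tested genes. The 89 had a median log2 difference of −0.06, with 34 above and 55 below 0, against a median of 0.00074 over all tested genes. By the rule for named genes, the 3 most abundant of each list are described here.

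Partners of the pyrophosphate and adenosine enzymes come first. Of 17 tested genes of extracellular nucleotides and adenosine, 0 passed (median log2 −0.08). Slc29a1, the adenosine transporter gene, had 2737 to 3278 counts over the 6 libraries, Adk, the adenosine kinase gene, 1829 to 2411, and the ATP-gated channel gene P2rx4 1209 to 2037. Abcc6, the transporter gene whose loss causes pseudoxanthoma elasticum, had 0.912 to 3.43 counts and was not tested, and was named after its values were seen.

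Among 10 tested phosphate transport and phosphatase genes 0 passed (median −0.05). The phosphate importer gene Slc20a1 had 7150 counts in wild type 1 and 3058 in wild type 2, against 4825, 2568, 2679 and 2910 in knockout 1 to 4. It was below the wild type of its set in 4 of 4, by a log2 of −0.33 ± 0.11 (SE, limma adjusted p = 0.999) after adjustment for library set. Of all tested genes 10.8% were lower in all 4. Its sister gene Slc20a2 lay between 3741 and 4262, and the growth factor receptor gene Fgfr1 between 11051 and 20031.

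In the vitamin K list 0 of 8 tested genes passed (median −0.0048). Axl, a receptor tyrosine kinase gene, had 46498 to 53779 counts. Its ligand gene Gas6 had 27895 and 37480 in wild type 1 and 2, against 51338, 34670, 27819 and 31770 in knockout 1 to 4, highest in knockout 1. Pros1, the protein S gene, ranged from 9617 to 22750.

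Receptors of osteopontin, listed with related matrix proteins, were abundant. Of 10 tested genes 0 passed (median −0.30, and −0.09 after adjustment for library set). The integrin genes Itgb1, Itga5 and Itgav had at least 124622, 78707 and 15291 counts in the first set. In the second they had at most 73621, 36990 and 9695, so their levels separated the library sets. Itga5 was below the wild type of its set in all 4 knockout libraries, and Itgb1 and Itgav in 2 of 4. Of the 5 tested genes around Tnfsf11 and its receptor 0 passed (median 0.19). Tnfsf11 (RANKL), the ligand that Tnfrsf11b binds, had 36.6 counts in wild type 1 and 85.3 in wild type 2, against 24.7, 203, 263 and 136 in knockout 1 to 4. It therefore lay below the wild type in the first set and above it in the second, as Bmp2 did. The signalling genes Traf6 and Nfatc1 had 1169 to 1638 and 762 to 1489 counts. Traf6 was above the wild type of its set in all 4 knockout libraries, and Nfatc1 below it in all 4. Of all tested genes 10.1% were higher in all 4 and 10.8% lower in all 4.

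Of 25 tested genes of BMP signalling and its antagonists 0 passed (median 0.04). Adjusted for library set, limma and DESeq2 called 0 of them. In that limma fit 5 had an unadjusted p under 0.05, beside 3.51% of all tested genes. Eng, the endothelial co-receptor gene endoglin, had 20412 counts in wild type 1 and 10845 in wild type 2, against 12838, 7076, 5946 and 4465 in knockout 1 to 4. It was lower than the wild type of its set in 4 of 4, by −0.82 ± 0.20 (log2, SE, limma adjusted p = 0.999) after adjustment for library set. Again, 10.8% of all tested genes were lower in all 4. The BMP modulator gene Bmper had 10088 to 18320 counts and the antagonist gene Grem1 5635 to 20689. Among bone and cartilage factors and matrix genes 0 of 14 passed (median −0.31). Sparc (osteonectin) had 147079 to 253685 counts, Atf4, a stress and osteoblast transcription factor gene, 9578 to 19349, and Cbfb, the partner gene of Runx2, 1692 to 2601.

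**Figure D5:**
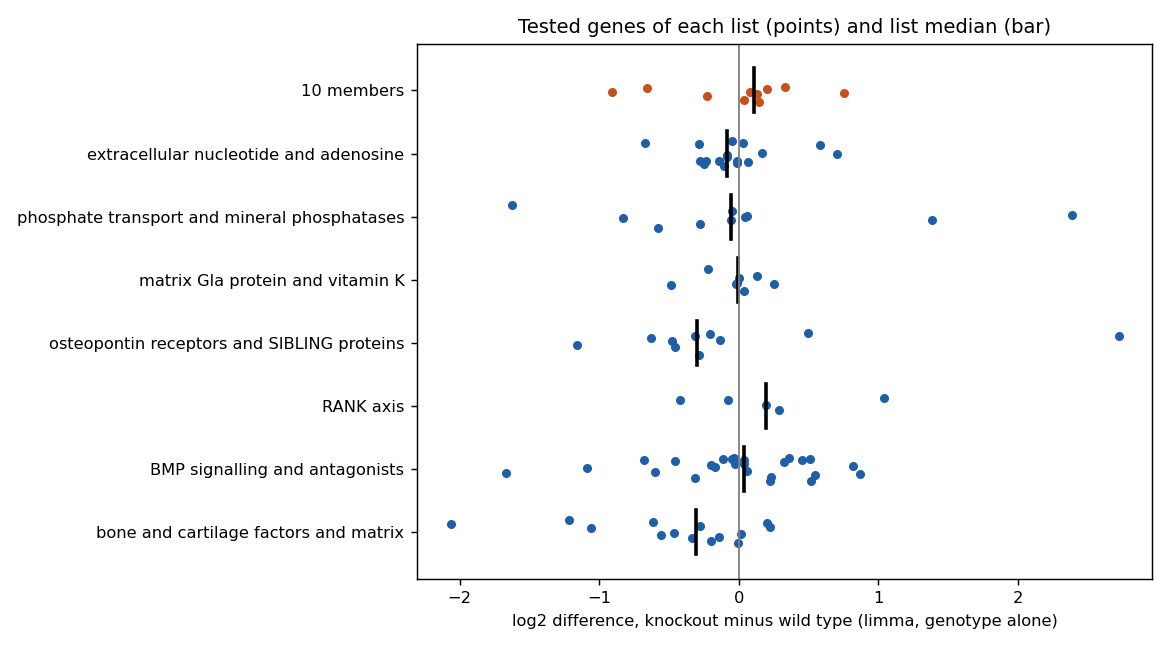
Log2 difference of each tested gene, knockout minus wild type by limma with genotype alone (horizontal axis), for the 10 genes in orange and 7 pathway lists in blue, with the median of each list as a black bar. The medians of the 7 pathway lists lie between −0.31 and 0.19.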

How the data were processed

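The deposited table holds, per the file's name and values, normalized counts, a signal that the authors made by dividing each gene's reads by the library's size factor. The submitters' processing notes list Trimmomatic 0.36, STAR 2.6.0c, featureCounts of Subread 1.6.1 and the GRCm38.p6 assembly. The design text instead names Trimmomatic 0.32, STAR 2.4.2a, HTSeq and DESeq2 1.10.1; the source of the table was not given in the sources used here. Dividing a library's values by the smallest one gave whole numbers throughout (100% within 1e-06 of a read), and these are the recovered reads.

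The test covered 15229 genes whose mean reached 10 normalized counts and was run with limma 3.58.1 in R 4.3.3 (mean trend) on log2(normalized count + 1), a scale that understates changes of low genes, with genotype as the sole term, Benjamini-Hochberg adjustment over all genes and a threshold of 0.05. EdgeR 4.0.16 (quasi-likelihood) and DESeq2 1.42.0 were run on the recovered reads. Other settings were the library set as a term, the second set alone, TMM scaling, a pseudocount of 5, no filter, no trend, a replicate block, and each library left out. The interaction and the DESeq2 fits without single libraries were added after the values were seen. All pairs within a genotype differed by more than sampling noise (chi-square per gene 26.2 to 397), and every library was kept. The fits were tested on simulated data.

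The members, gene lists and settings, the library sets included, were chosen with earlier results of these data known. The named genes are all members, the 3 most abundant and any called genes of each list, and the 2 nearest profiles of each member with a mean of at least 50, by root-mean-square difference. Exon lengths and coordinates are from GENCODE M21 on GRCm38, where exons of all transcripts were merged.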

Additional observations from a re-analysis of the deposited data

Results flagged for a closer look

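Some genes differed from the wild type in opposite directions in the library sets, knockout 1 on one side and knockout 2, 3 and 4 on the other, as 19.4% of all tested genes did. The interaction of genotype with library set, the log2 difference in the second set minus that in the first, was 2.64 for Bmp2 and 1.73 for Tnfsf11. It was −1.14 for Gas6, 0.13 for Slc20a2, −0.11 for Axl and −0.14 for Sparc. It did not pass for any of these 6 genes (limma adjusted p = 0.999 in each).

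In other genes 1 of the 4 knockout libraries, knockout 1 in each case, lay far from the rest. The gap to the nearest library, as a share of the range of the 4, was 0.848 for Slc20a1, 0.834 for Itgb1, 0.920 for Itga5, 0.873 for Sparc and 0.889 for Atf4, above Dixon's 95% limit for 4 samples. Chance gives about 1 such gene in 20 if the 4 libraries are alike. They were not alike here, as the library sets did not overlap in 63.4% of all tested genes. Knockout 1 is the knockout library of the first set, and wild type 1, its partner there, was also apart from wild type 2 in each of these genes. None of the 10 calcification genes had such a gap.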

How the results depend on the processing

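The count of 0 members called held under 16 of 17 alternatives, DESeq2 adjusted for library set calling 1. The count of pathway genes called was 0 under all 17. The count of all genes called, 1, became 2 with a pseudocount of 5, 7 with DESeq2, 2 and 50 in edgeR and DESeq2 adjusted for library set, and 0 in the second set alone or with the title number as a replicate block. It ranged from 0 to 2 when 1 library was left out. Of 170 values of the 10 genes, 150 kept their direction and side of the threshold, 19 turned and 1 passed it, that of Ank (−0.64 in DESeq2 adjusted for library set). Ank alone did not turn. In the second set alone, Enpp1 turned to 0.021, Alpl to −0.26 and Nt5e to −0.10. Mgp turned to −0.13, −0.12 and −0.12 in the limma, edgeR and DESeq2 fits adjusted for library set, and to −0.056 with the replicate block. Tnfrsf11b turned to −0.033 in edgeR and −0.048 in DESeq2. The cause was not tested.

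Leaving out 1 library gave ranges of −1.47 to −0.35 for Ank, −0.38 to −0.069 for Enpp1, −0.61 to 2.12 for Alpl, −0.034 to 0.16 for Nt5e, −1.57 to 0.26 for Entpd1, −0.024 to 0.29 for Spp1, −0.20 to 0.61 for Mgp, −0.70 to 0.77 for Tnfrsf11b, −0.020 to 0.32 for Runx2 and −0.61 to 1.27 for Bmp2. Without 1 wild type library, the lone one is assumed to vary like the other group. Same-numbered libraries deviated together from their genotype means (r = 0.84 for number 1 and 0.56 for number 2, across genes). Numbers 1 and 2 lie in different library sets, so this check cannot tell pairing from the set split. With 2 pairs the numbers are not shown to pair the libraries. With the replicate block the difference of Ank was −0.58 and 0 members were called. Depth limits Alpl, with 6 to 63 reads a library; the other 9 genes had at least 108.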

Other observations

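Of the 12 markers of osteoblasts, osteoclasts and chondrocytes, 2 that osteoclasts express had counts above 100 in every library. Ctsk, the cathepsin K gene, had 804 and 1166 counts in knockout 1 and wild type 1 and 1410 to 2286 in the second library set. Acp5, the gene of tartrate-resistant acid phosphatase, had 288 to 722. Macrophages also express both genes, and the summed macrophage markers were likewise lowest in the first set (1767 and 1501 counts against 31098 to 50871). Their part in these levels was not tested, and the genes named here were picked after their values were seen. Dcstamp and Ocstamp, fusion genes of osteoclasts, had at most 5.14 and 1.15 counts. Dmp1 had at most 3.14 counts, Phex 11.3, Col2a1 7.33 and Col10a1 12.3.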
